A study of Mus musculus with 12 samples.

Results

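After stimulation through CD3 and CD28, 1255 open chromatin regions were less accessible in regulatory T cells (Treg) of both genotypes studied here. These closed regions were chosen by their own values, out of 118680 regions counted by ATAC-seq, an assay in which a transposase cuts and tags DNA that is free of tightly packed nucleosomes. Counts were divided by the library total and given per 1000000 counts (CPM). A region was called closed when its highest group mean was at least 10 CPM, when the mean of the unstimulated (ex vivo) libraries was at least 1.5 times that of the stimulated libraries in WT Treg and again in Ikzf1-cko Treg, and when every stimulated library lay below every ex vivo library of its genotype. Of all regions, 26268 reached 10 CPM in at least 1 group mean, and 4.78% of these were closed. A mirrored rule, with the opposite direction, gave 567 opened regions. Because the levels before and after stimulation chose these regions, those levels and their folds are given as a description with no test.

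The 12 libraries came from YFP-positive Treg sorted from mouse spleen, with 3 libraries for each of 4 groups. The study's purification methods name spleen and lymph nodes, and its ATAC-seq methods name no tissue, so lymph node cells may be included. WT Treg carried Foxp3-YFP-Cre alone, and Ikzf1-cko Treg carried the same Cre with floxed Ikzf1 alleles, so that deletion is driven by the Foxp3 promoter in Foxp3-expressing cells and the control cells express Cre as well. Cells of each genotype were profiled ex vivo or after 4 hours on plate-bound anti-CD3 with anti-CD28, at 100000 cells per library. No group is labelled as cultured without these antibodies, so stimulation and time in culture cannot be told apart. Per the methods, sorted Treg were split between the states, so the states come from the same sorts, though which libraries share one is not given. The study's methods name 3 biological replicates. Age of the mice used for ATAC-seq and any pooling of animals are not given in the sources used here, so p-values measure the spread between these libraries. Library totals ran from 4808916 to 15355521 counted reads, and all 6 Ikzf1-cko libraries were deeper than all 6 WT libraries. The median closed region held 96 to 168 reads in a WT ex vivo library and 46 to 57 in a WT stimulated one, against 219 to 328 and 103 to 137 in Ikzf1-cko libraries. Start sites of Cd3e, Il2ra and Ctla4 were open at 13.9 to 36.4 CPM over the 12 libraries, whereas the Foxp3 start site held 3.27 to 8.72 CPM and the Cd4 start site 2.81 to 5.61 CPM. No region covered a start site of Ikzf2, another Treg gene, of the B cell genes Cd79a, Pax5 and Blk or of the myeloid genes Csf1r, Itgam and Lyz2. Those of the B cell gene Ebf1 (4.69 to 8.47 CPM), of Cd8b1 (13.1 to 21.9 CPM) and of Cebpa (23.6 to 39.4 CPM) had a region. The start site of Cd8a, the other CD8 gene, held only 0.513 to 3.31 CPM. Those of the erythroid gene Gata1 (0.913 to 2.95 CPM) and the NK cell gene Klrb1c (1.22 to 2.38 CPM) were also low. None of these marker regions was a closed region.

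Treg are CD4 T cells that restrain immune responses and are defined by the transcription factor Foxp3. Signals through the T cell receptor and CD28 activate NFAT, NF-kB and AP-1 and remodel enhancers within hours, while programmes kept by Foxo1, Klf2, Tcf7, Lef1 and Bach2 hold resting T cells in a quiescent, recirculating state. Ikaros, the zinc finger protein encoded by Ikzf1, binds DNA at a TGGGAA core and recruits chromatin remodelling and deacetylase complexes. Loss of accessibility at a distal region usually accompanies loss of factors bound there, although accessibility alone does not show which factors these are.

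The central 200 bases of 10 closed regions are shown, on the plus strand of mm9, to place the sequence next to the response. Capitals mark matches on either strand to the letters TGACTCA for AP-1, AACCACA for RUNX, ATCAAAG for TCF/LEF, TGTTTAC for forkhead factors and TGGGAA for Ikaros. None of these 5 strings contains another. The first group was picked for carrying a match. From the largest folds and highest levels it holds an intron of Vgll4 at chr6:114861688-114861887 with an AP-1 match and an intron of Plcxd2 at chr16:46006468-46006667 with a TCF/LEF match. It also holds the overlap of Pigk and St6galnac5 introns at chr3:152575486-152575685 with a RUNX match. From the gene lists it holds an intron of the cytokine receptor kinase gene Jak1 at chr4:100875257-100875456 with a pair of AP-1 matches and an Ikaros match. The windows at Aldh9a1, Ski, Stk10, Lrig1, Fam107b, Xylt1 and Prss2, named further on for their folds or levels, held none of the 5 strings. Neither did those upstream of Ifnar1 and of Tnfaip3 named for the same reasons.
Vgll4 intron: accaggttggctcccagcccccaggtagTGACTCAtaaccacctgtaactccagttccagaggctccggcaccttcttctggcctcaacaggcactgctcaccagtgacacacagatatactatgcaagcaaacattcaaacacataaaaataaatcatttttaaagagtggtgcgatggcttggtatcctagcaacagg
Plcxd2 intron: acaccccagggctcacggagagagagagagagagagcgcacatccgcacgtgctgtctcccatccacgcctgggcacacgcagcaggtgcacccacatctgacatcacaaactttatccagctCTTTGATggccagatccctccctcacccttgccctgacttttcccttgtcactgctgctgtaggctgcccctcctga
Pigk and St6galnac5 intron: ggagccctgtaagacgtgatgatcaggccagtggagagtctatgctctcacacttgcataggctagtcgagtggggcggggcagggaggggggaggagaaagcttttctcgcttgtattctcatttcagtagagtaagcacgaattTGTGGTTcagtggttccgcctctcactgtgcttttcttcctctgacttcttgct
Jak1 intron: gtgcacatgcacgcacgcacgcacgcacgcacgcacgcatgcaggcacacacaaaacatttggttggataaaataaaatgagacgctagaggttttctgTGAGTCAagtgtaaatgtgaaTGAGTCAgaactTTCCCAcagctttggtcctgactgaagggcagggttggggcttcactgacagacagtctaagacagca

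The second group holds closed regions whose accessibility also differed between genotypes, given further on. Regions higher in Ikzf1-cko Treg are an intron of Tigit, encoding an inhibitory receptor, at chr16:43661739-43661938, an intron of Jmjd1c at chr10:66563608-66563807, an intron of Unc80 at chr1:66696669-66696868 and an intergenic region upstream of Rap1a at chr3:105606616-105606815. Regions lower in Ikzf1-cko Treg are an intron of Lass6 at chr2:68798008-68798207 and an intron of Rras2 at chr7:121237256-121237455, the latter without any of the 5 strings.
Tigit intron: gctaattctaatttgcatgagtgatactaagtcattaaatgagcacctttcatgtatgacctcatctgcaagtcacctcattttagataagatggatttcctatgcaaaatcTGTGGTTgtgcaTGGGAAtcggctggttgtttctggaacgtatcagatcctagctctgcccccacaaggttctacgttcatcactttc
Jmjd1c intron: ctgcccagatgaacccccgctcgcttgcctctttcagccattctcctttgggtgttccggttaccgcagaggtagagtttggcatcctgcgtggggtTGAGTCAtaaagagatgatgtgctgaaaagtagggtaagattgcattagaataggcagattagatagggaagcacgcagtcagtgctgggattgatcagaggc
Unc80 intron: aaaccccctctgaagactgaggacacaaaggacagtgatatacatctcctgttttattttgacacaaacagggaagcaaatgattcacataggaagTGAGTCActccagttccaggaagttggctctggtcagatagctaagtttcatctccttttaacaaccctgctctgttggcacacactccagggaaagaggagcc
Rap1a upstream: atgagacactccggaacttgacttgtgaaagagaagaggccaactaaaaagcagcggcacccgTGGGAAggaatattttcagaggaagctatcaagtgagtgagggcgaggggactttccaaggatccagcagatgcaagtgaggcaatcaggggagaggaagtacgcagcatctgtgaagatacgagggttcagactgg
Lass6 intron: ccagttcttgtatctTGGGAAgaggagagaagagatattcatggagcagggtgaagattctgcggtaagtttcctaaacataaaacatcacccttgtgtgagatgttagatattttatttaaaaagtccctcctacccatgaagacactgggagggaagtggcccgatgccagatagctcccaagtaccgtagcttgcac
Rras2 intron: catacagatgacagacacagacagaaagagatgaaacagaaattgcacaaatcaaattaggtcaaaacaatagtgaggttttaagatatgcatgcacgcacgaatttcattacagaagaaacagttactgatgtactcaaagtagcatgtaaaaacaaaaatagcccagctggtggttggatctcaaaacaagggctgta

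The closed regions together took 3.10, 3.15 and 3.33% of all counted reads in the WT ex vivo libraries and 1.49, 1.72 and 1.57% after stimulation. In Ikzf1-cko Treg they took 3.59, 3.58 and 3.21% ex vivo and 1.95, 1.99 and 2.08% after stimulation. The stimulated libraries thus lay below the ex vivo libraries in each genotype, and the Ikzf1-cko stimulated libraries all lay above the WT stimulated ones. A lower value can come from fewer cells with the region open or from less opening per cell, and these cannot be told apart in bulk libraries. The share of reads on all regions that reached 10 CPM also differed between groups, at 71.3 to 75.3% in WT ex vivo, 61.1 to 64.5% in WT stimulated, 75.7 to 78.2% in Ikzf1-cko ex vivo and 73.5 to 76.6% in Ikzf1-cko stimulated libraries, and its part in the folds was not tested.

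**Figure D1:**
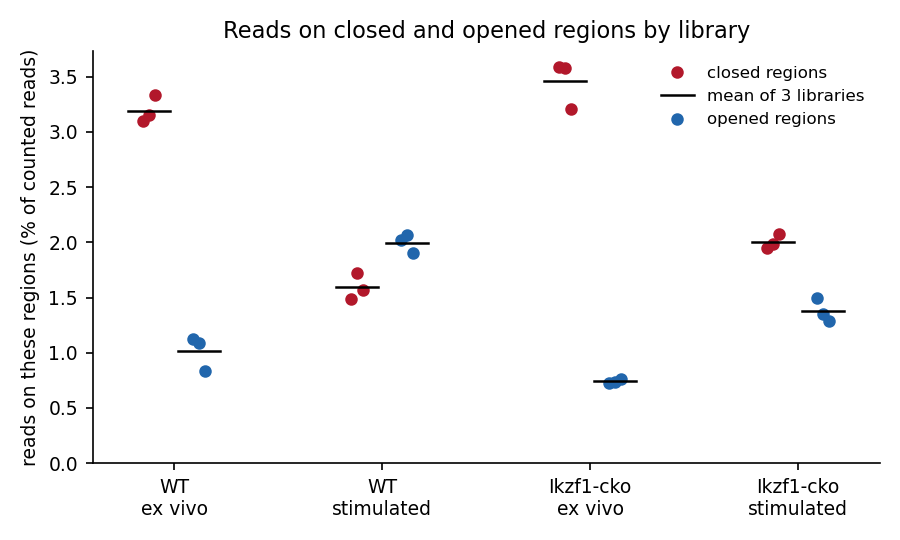
Share of counted reads (%, vertical axis) on the 1255 closed and the 567 opened regions in each of the 12 libraries, grouped by genotype and state, with points for libraries and lines for the means of 3. Closed regions took 3.10 to 3.59% of reads ex vivo and 1.49 to 2.08% after stimulation, and the opened regions moved the other way in both genotypes.

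Across the closed regions the median group mean went from 18.9 CPM ex vivo to 9.65 CPM stimulated in WT Treg and from 20.4 to 11.6 CPM in Ikzf1-cko Treg. The median fold of ex vivo over stimulated accessibility was 1.94 in WT Treg, with 10th and 90th percentiles of 1.59 and 2.58 and a maximum of 4.05. In Ikzf1-cko Treg the median was 1.69, with percentiles of 1.53 and 2.13 and a maximum of 3.36. All regions that reached 10 CPM had median folds of 1.17 in WT and 1.03 in Ikzf1-cko Treg. A fold of at least 2 was reached by 564 closed regions in WT Treg, by 195 in Ikzf1-cko Treg and by 140 in both, and a fold of at least 3 by 3 regions in both. The fold was larger in WT Treg for 945 of the 1255 closed regions (75.3%), beside 70.3% of all regions that reached 10 CPM. With a loess scaling against abundance that shift lessened, to 53.2% of the closed and 46.5% of the covered regions. Lower stimulated than ex vivo means in both genotypes are the rule itself under library totals. TMM scaling raised the median folds and so kept this direction. Under loess all 1255 regions kept it too, with lowest folds of 1.26 in WT and 1.43 in Ikzf1-cko Treg. These are the libraries that chose the regions, so this is a description.

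The fold threshold cut through a continuous distribution. Just inside it were a Xylt1 intron with folds of 1.85 in WT and 1.5005 in Ikzf1-cko Treg and an intron of Lass6 with 1.98 and 1.5012. Just outside were a region near Plekha5 with 2.45 and 1.4995 and a region near Ifngr1 with 2.38 and 1.4996. Another 4488 regions that reached 10 CPM had separate libraries in both genotypes but a smaller fold, and 18 met the level and the folds but had overlapping libraries.

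The rule was also applied with the libraries of 1 replicate number left out, and the regions it chose were read in those left-out libraries. Without replicate 1 the rule gave 1042 regions, with a median left-out fold of 2.00 in WT and 1.81 in Ikzf1-cko Treg. Without replicate 2 it gave 1281 regions, with left-out folds of 1.77 and 1.71. Without replicate 3 it gave 1584 regions, with left-out folds of 2.07 and 1.43, the latter under the fold of the rule. The left-out stimulated library was lower in both genotypes for 98.0 to 99.3% of these regions, beside 37.7 to 53.6% of all regions that reached 10 CPM. Both left-out folds reached 1.5 for 76.5%, 55.1% and 36.6% of the regions chosen without replicates 1, 2 and 3, beside 8.02%, 4.62% and 3.24% of the covered regions.

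**Figure D2:**
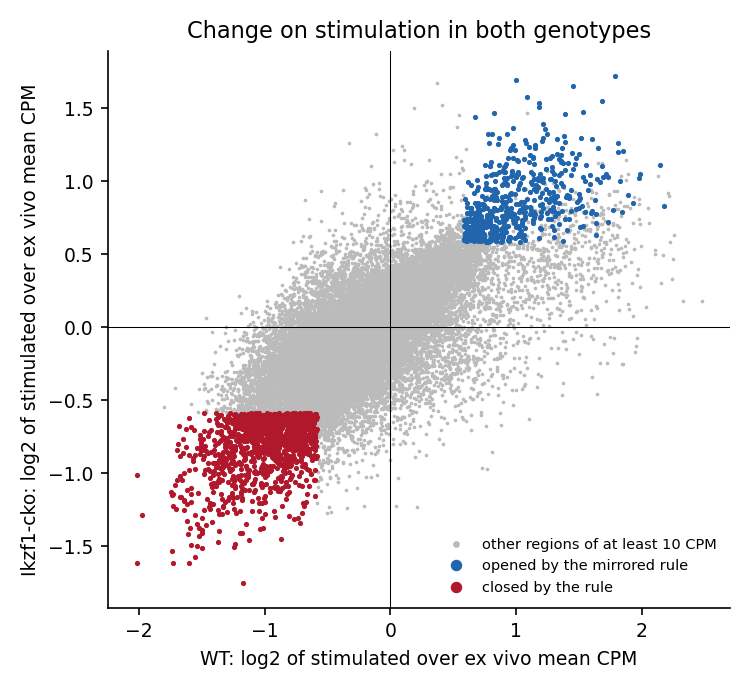
Log2 of stimulated over ex vivo mean CPM in WT (horizontal axis) and Ikzf1-cko Treg (vertical axis) for the regions that reached 10 CPM, with 1 point per region and the closed and opened regions coloured. The closed regions fill the lower left corner by construction, with a median fold of 1.94 in WT and 1.69 in Ikzf1-cko Treg.

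Ranked by the smaller of the WT and Ikzf1-cko folds, the largest closing was at an exon of Rgs2, which encodes a regulator that shortens G protein signals. It held 17.3, 17.9 and 20.2 CPM ex vivo and 4.13, 5.66 and 3.95 CPM stimulated in WT Treg, a fold of 4.03, and 19.0, 17.2 and 13.5 CPM ex vivo and 5.86, 4.88 and 5.49 CPM stimulated in Ikzf1-cko Treg, a fold of 3.06. All 6 stimulated libraries were below all 6 ex vivo libraries, and the genotypes overlapped in each state. An exon of Rgs10, a gene of the same family, went from 34.1, 37.4 and 34.4 to 7.28, 13.2 and 11.4 CPM in WT Treg (3.32-fold) and from 24.9, 26.7 and 23.2 to 8.68, 8.04 and 9.16 CPM in Ikzf1-cko Treg (2.89-fold). Here every Ikzf1-cko ex vivo library lay below every WT ex vivo library, although the stimulated libraries overlapped.

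An intron of Ski, encoding a repressor of TGF-beta signalling through Smad proteins, held 29.8, 32.6 and 34.8 CPM ex vivo and 11.1, 12.4 and 8.53 CPM stimulated in WT Treg. In Ikzf1-cko Treg the same intron held 31.2, 29.1 and 32.7 CPM ex vivo and 8.68, 10.6 and 11.1 CPM stimulated, so that the folds were 3.03 and 3.07. An intron of Stk10, a kinase of lymphocytes, held 28.9, 35.9 and 35.0 CPM ex vivo and 8.93, 13.9 and 11.2 CPM stimulated in WT Treg. Its Ikzf1-cko values were 23.6, 27.5 and 21.8 CPM ex vivo and 7.48, 8.24 and 8.81 CPM stimulated, with folds of 2.93 in WT and 2.97 in Ikzf1-cko Treg. A region 0.444 kb upstream of the Aldh9a1 start site, the least covered of the 10 with the largest folds, held 6.54, 11.7 and 11.3 CPM ex vivo and 2.48, 3.11 and 3.33 CPM stimulated in WT Treg. The genotypes overlapped there, with Ikzf1-cko values of 8.53, 9.81 and 11.8 CPM ex vivo and 2.71, 4.17 and 2.97 CPM stimulated.

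Closing was not limited to regions with like levels in the genotypes. The start site of Dnase1l3, a secreted DNase gene, held 37.5, 39.7 and 41.3 CPM ex vivo and 13.6, 15.5 and 12.9 CPM stimulated in WT Treg. In Ikzf1-cko Treg it held 66.5, 65.3 and 47.2 CPM ex vivo and 22.9, 20.1 and 19.8 CPM stimulated, above the WT libraries in each state, while the folds were 2.82 and 2.85. A region 26.4 kb upstream of Ifnar1, which encodes a type I interferon receptor chain, went from 29.4, 32.5 and 32.2 to 10.3, 12.8 and 8.32 CPM in WT Treg and from 41.5, 44.6 and 38.1 to 14.4, 15.3 and 14.5 CPM in Ikzf1-cko Treg. The remaining 3 of the 10 largest were the introns of Vgll4 and Plcxd2 shown above and an intron of Lrig1, with folds of 2.904 and 2.82, 3.04 and 2.66, and 2.86 and 2.69 in WT and Ikzf1-cko Treg. In Vgll4 the WT ex vivo libraries held 19.8, 14.4 and 22.5 CPM, and the WT stimulated libraries 5.46, 8.04 and 6.03 CPM.

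The highest closed region was 46.2 kb upstream of Tnfaip3, the gene of the NF-kB inhibitor A20. It held 178, 185 and 190 CPM ex vivo and 90.8, 111 and 106 CPM stimulated in WT Treg, and 220, 224 and 202 CPM ex vivo and 148, 128 and 142 CPM stimulated in Ikzf1-cko Treg. It was still the most accessible closed region after stimulation, with folds of 1.80 and 1.54. The Pigk and St6galnac5 intron with the RUNX match went from 114, 115 and 119 to 46.6, 49.7 and 56.6 CPM in WT Treg and from 138, 131 and 115 to 77.8, 81.1 and 81.5 CPM in Ikzf1-cko Treg. An intron of Fam107b (2.43 and 1.63), the Xylt1 intron at the threshold and a region 32.5 kb downstream of Prss2 (1.82 and 1.52) completed the 5 highest, each with a larger fold in WT Treg.

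Closed regions were distal. Of the 1255, 643 lay in introns (51.2%), 477 between genes (38.0%) and 135 over exons (10.8%), and 47 (3.75%) covered an annotated start site, compared with 40.8% of all regions that reached 10 CPM and 39.2% of the opened regions. Put the other way, 0.439% of covered regions over a start site were closed and 7.77% of those elsewhere. The median distance to the nearest start site was 15.9 kb, and 20.004 kb for covered regions away from start sites. Closed regions were shorter than these (median 701 and 871 bases) and near them in GC content (47.3 and 48.5%), whereas opened regions had 56.4% GC. On the chromosomes, 3.29% (chromosome 11) to 6.76% (chromosome 6) of covered regions were closed.

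The 47 closed regions over a start site were led by Dnase1l3 and by Mt1, a metallothionein gene, at 2.52-fold in WT and 2.26-fold in Ikzf1-cko Treg. They also held start sites of 3 TNF receptor genes, singled out after the values were seen. Tnfrsf9, encoding the costimulatory receptor 4-1BB, went from 54.6, 50.2 and 55.1 to 21.2, 29.0 and 19.96 CPM in WT Treg and from 67.4, 69.7 and 60.9 to 36.1, 37.6 and 38.7 CPM in Ikzf1-cko Treg. Tnfrsf8 (CD30) had folds of 2.83 and 1.76, and Tnfrsf19 of 1.98 and 1.59.

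Many closed regions lay close to each other. Joined within 20 kb, they formed 944 loci, of which 182 held at least 2 closed regions (493 regions together) and 29 held at least 4. Each of the 1143 regions within 100 kb of a start site was given to that gene: 767 genes had at least 1, 88 at least 3 and 18 at least 5. Ets1 had the most, with 12 of 22 regions that reached 10 CPM, followed by Gm5069, a gene model whose start site adjoins that of Itpkb, with 11 of 16, Bach2 with 10 of 21, Eif2c2 with 9 of 16 and Lrig1 with 8 of 15.

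Ets1 encodes a transcription factor needed for normal T cell development and survival. Its 12 closed regions lay from 44.2 kb before to 114 kb after its first annotated start site, and the region with the largest smaller fold, in an intron, held 36.9, 43.9 and 49.6 CPM ex vivo and 13.4, 23.2 and 12.5 CPM stimulated in WT Treg. Its Ikzf1-cko values were 51.4, 51.2 and 47.1 CPM ex vivo and 19.7, 21.7 and 23.2 CPM stimulated, so that stimulated and ex vivo libraries stayed apart in each genotype at folds of 2.66 and 2.32. The start-site region of Ets1 in the middle of the locus had folds of 0.99 and 1.13 and was not closed.

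The 11 closed regions given to Gm5069 lie inside Itpkb, the gene of an inositol trisphosphate kinase that limits calcium signals after receptor engagement. The most accessible was 73.2 kb from the Itpkb start site and went from 94.8, 87.0 and 105 to 32.4, 39.3 and 35.8 CPM in WT Treg and from 121, 122 and 121 to 49.9, 45.3 and 49.5 CPM in Ikzf1-cko Treg. Every Ikzf1-cko library lay above the WT libraries of its state there. The Itpkb start site had folds of 1.02 and 1.11. Bach2, a repressor that holds back effector differentiation, had 8 of its 10 closed regions inside the gene, with the largest smaller fold at an intron that went from 45.2, 50.3 and 49.8 to 21.5, 22.5 and 15.8 CPM in WT Treg and from 49.6, 49.3 and 43.3 to 25.05, 25.6 and 22.2 CPM in Ikzf1-cko Treg. The Bach2 start site had folds of 1.25 and 1.18, and the main Tnfaip3 start site, in a locus with 6 of 12 closed, 1.26 and 1.14.

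**Figure D3:**
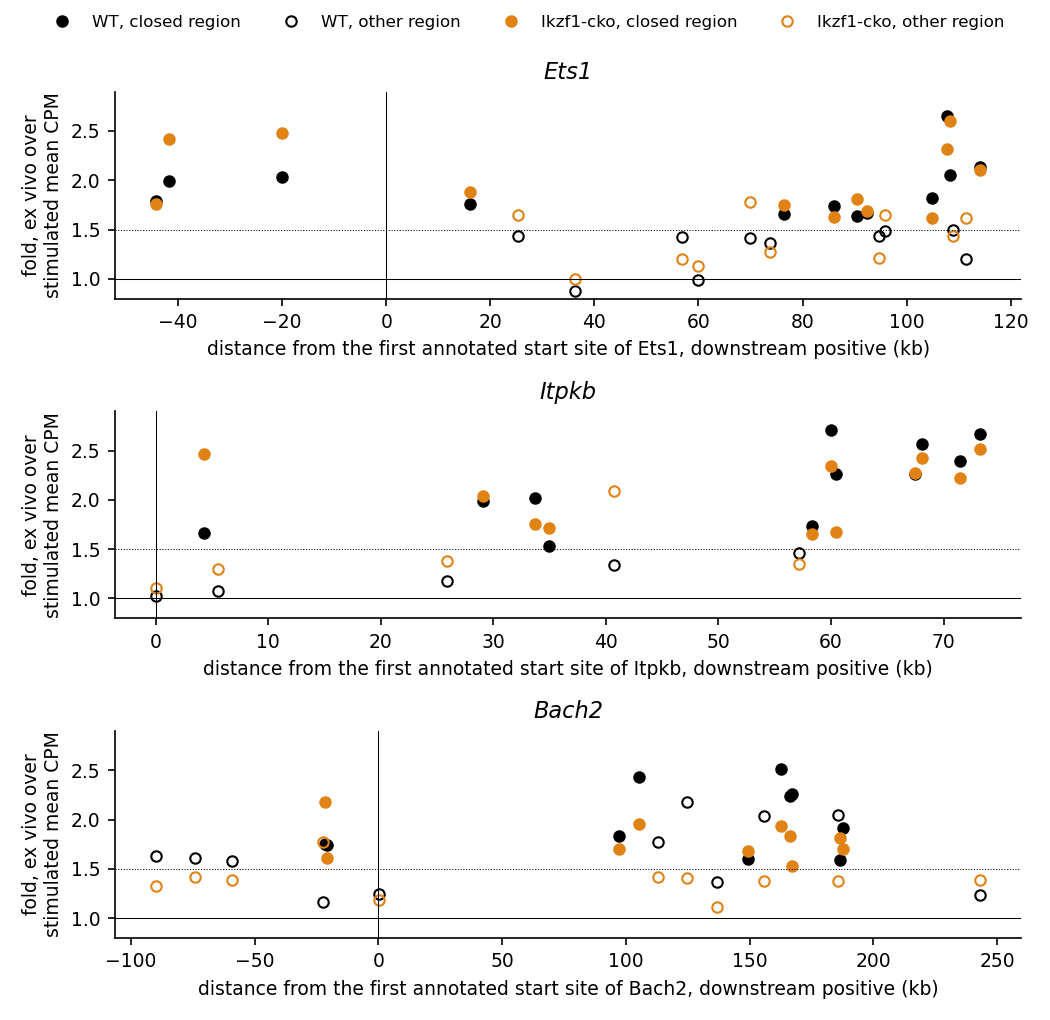
Fold of ex vivo over stimulated mean CPM (vertical axis) for regions that reached 10 CPM at Ets1, Itpkb and Bach2, by distance in kb from the first annotated start site of each gene, with filled points for closed regions and open points for the others. The 12, 11 and 10 closed regions were spread over each locus, and the start-site regions had folds of 0.99 to 1.25.

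Sequence letters differed modestly between closed and comparable regions. In the central 200 bases, AP-1 letters were in 172 closed regions (13.7%), in 11.7% of covered regions away from start sites, a set that includes the closed ones, and in 3.35% of opened regions. RUNX letters were in 150 (11.95%, beside 9.09 and 3.53%), TCF/LEF letters in 73 (5.82%, beside 4.30 and 2.82%) and forkhead letters in 3.82% (3.31 and 1.59%). Letters of SP/KLF (CCCCGCCC) were in 2.63% of closed, 4.48% of comparable and 13.9% of opened regions, and those of CTCF (AGGGGGC) in 2.39, 4.51 and 9.52%. The Ikaros core TGGGAA was in 190 closed regions (15.1%), 15.0% of comparable and 16.4% of opened regions. At least 1 of the AP-1, RUNX, TCF/LEF and forkhead strings was in 380 closed regions (30.3%), compared with 25.4% of the comparable ones. These excesses depended on the thresholds: at a floor of 20 CPM, AP-1 letters were in 11.4% of closed and 13.2% of comparable regions, and at a fold of 2, TCF/LEF letters were in 4.29% of closed regions, no longer above the 4.30%. GC content and position move with these shares, and opened regions are rich in start sites, so their part was not tested and a match is a description only.

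**Figure D4:**
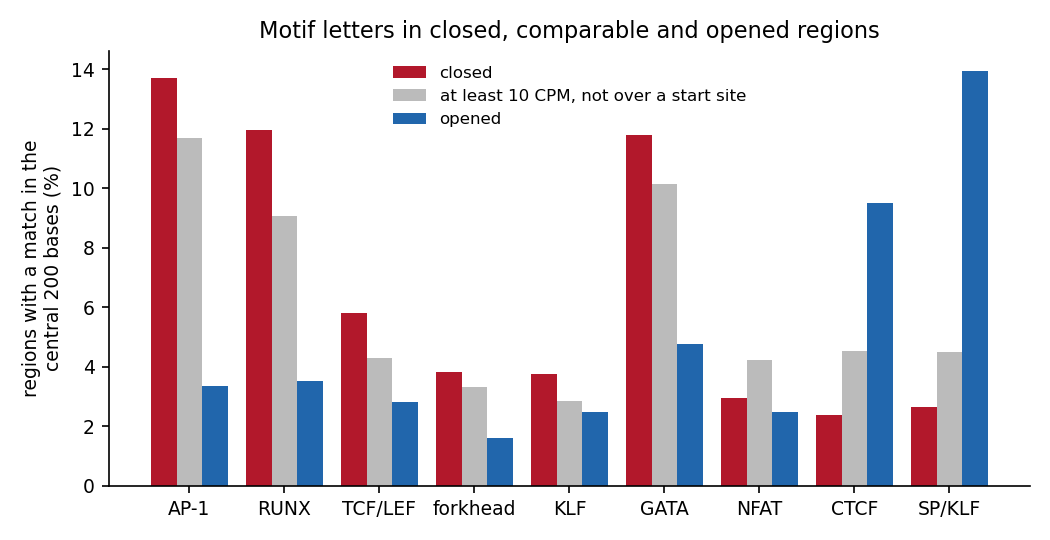
Share of regions (%, vertical axis) with a match to each motif's letters in the central 200 bases, for closed regions, for regions of at least 10 CPM away from start sites and for opened regions. AP-1 letters reached 13.7, 11.7 and 3.35%, and SP/KLF letters 2.63, 4.48 and 13.9%.

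Genes of T cell state and signalling were then taken by list. Over all 9 lists, 139 of 1166 covered regions were closed (11.9%), beside 4.71% of the covered regions of all genes. The latter share mixes start-site and other regions, and away from start sites 7.77% of covered regions were closed. List regions were not matched for position. Naive-state and quiescence factors had 39 of 224 (17.4%), at 10 of 26 genes, with 12 at Ets1 and 10 at Bach2. None of the 224 opened, beside 567 of all 26268 covered regions. The homing, negative regulator, cytokine receptor and Notch lists had no opened region either. Besides Ets1 and Bach2 the naive-state list was led by Foxo1, which maintains naive T cell homing, by Klf6 and by Foxp1. A region 5.15 kb from the Foxo1 start site went from 11.7, 12.2 and 15.7 to 4.80, 5.12 and 4.99 CPM in WT Treg and from 12.6, 10.9 and 12.4 to 6.18, 5.09 and 5.93 CPM in Ikzf1-cko Treg. A Klf6 intron went from 27.7, 28.0 and 30.5 to 8.10, 13.2 and 11.2 CPM and from 44.2, 40.3 and 39.0 to 19.4, 20.1 and 21.8 CPM, with the Ikzf1-cko libraries above WT in each state. The Foxp1 region had folds of 2.08 and 2.00. No closed region was given to Klf2, Tcf7, Lef1 or Satb1.

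Homing genes had 11 of 130 regions closed (8.46%), at 5 genes. Besides Rgs2 these were S1pr1, Cxcr4 and Ccr7, receptors that direct T cells out of and into lymphoid organs, and Ccr9, which the study places among gut homing genes. The S1pr1 region, 5.57 kb downstream, went from 16.9, 13.1 and 14.9 to 5.29, 7.67 and 5.82 CPM in WT Treg and from 11.1, 9.67 and 6.92 to 4.34, 4.58 and 4.54 CPM in Ikzf1-cko Treg. The Ikzf1-cko libraries were lower than the WT libraries in each state there. The Cxcr4 region had folds of 2.58 and 2.00, and a Ccr7 intron 1.82 in WT and 2.73 in Ikzf1-cko Treg.

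Negative regulators of signalling had 15 of 114 closed (13.2%). A Dusp10 exon, in the gene of a phosphatase of JNK and p38, went from 9.62, 11.9 and 8.96 to 3.14, 4.20 and 1.87 CPM in WT Treg and from 7.42, 5.31 and 4.87 to 2.60, 2.85 and 2.09 CPM in Ikzf1-cko Treg. The leading region of Cblb, a ubiquitin ligase that raises the threshold of activation, had folds of 2.18 and 1.97, that of Socs3, an inhibitor of cytokine signalling, 2.56 and 1.95, and that of the phosphatase gene Ptpn22 1.85 and 1.61.

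Cytokine receptor and STAT genes had 27 of 174 closed (15.5%), at 12 of 30 genes. After Ifnar1 the largest smaller folds were at Tgfbr2 (2.10 and 2.17), a TGF-beta receptor chain, Il4ra (1.99 and 2.30), the Jak1 intron shown above (2.62 and 1.94) and Ifngr2 (1.88 and 1.83). The Jak1 intron held 20.6, 23.1 and 28.0 CPM ex vivo and 9.10, 10.8 and 7.49 CPM stimulated in WT Treg, and 26.3, 26.9 and 23.1 CPM and 12.1, 13.3 and 13.8 CPM in Ikzf1-cko Treg. The ex vivo libraries of the genotypes overlapped, while the stimulated Ikzf1-cko libraries were all above WT. NF-kB genes had 11 of 80 closed (13.8%), all at Tnfaip3 (6) and Nfkb1 (5).

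Treg genes had 19 of 167 closed (11.4%), at 9 of 30 genes with covered regions. An Il10 exon, in the gene of the suppressive cytokine IL-10, went from 11.2, 12.5 and 10.8 to 4.96, 5.66 and 3.95 CPM in WT Treg and from 20.6, 23.7 and 20.5 to 7.37, 7.23 and 8.29 CPM in Ikzf1-cko Treg. An intron of Tnfrsf1b, encoding TNF receptor 2, went from 61.6, 72.2 and 74.6 to 28.1, 33.4 and 30.2 CPM and from 97.0, 97.9 and 78.1 to 42.4, 42.8 and 46.7 CPM. In both places the Ikzf1-cko libraries were above WT in each state. Ctla4, an inhibitory receptor, had 4 of 14 regions closed, led by an exon with folds of 2.19 and 2.04, and Tnfrsf18 (GITR) had folds of 1.77 and 1.86.

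In Ikzf1 itself 3 of 9 covered regions closed, all intronic. The most accessible, at chr11:11625373-11626914, went from 70.6 ± 3.57 to 30.2 ± 4.69 CPM in WT Treg and from 73.8 ± 11.2 to 48.7 ± 2.44 CPM in Ikzf1-cko Treg (mean ± SD, n = 3). The region over the first Ikzf1 start site was at 34.0 ± 2.43 CPM in WT and 34.2 ± 1.75 CPM in Ikzf1-cko Treg ex vivo, with a log2 fold change of 0.00 (FDR = 0.977, edgeR). Stimulated, it was higher by 0.35 (FDR = 0.0034), and a further start-site region by 0.46 (FDR = 0.0023), after 0.04 ex vivo (FDR = 0.800). Such shifts were common, as the stimulated median over covered regions was 0.24 and 45.5% of them were higher at FDR under 0.05. Which exons the floxed alleles remove is not given in the sources used here, so these values do not check the deletion.

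The smallest shares were on the TCR signalling, immediate response and Notch lists, none above the 7.77% of covered regions away from start sites. TCR signalling genes had 8 of 140 closed (5.71%) and 3 opened, led by Cd2 (2.12 and 1.93) and Cd247 (1.90 and 1.75). AP-1, NFAT, Nr4a, Egr and Myc genes had 6 of 98 (6.12%), led by a region 3.68 kb downstream of Junb that held 8.47, 8.61 and 9.89 CPM ex vivo and 2.48, 4.38 and 2.91 CPM stimulated in WT Treg. Its Ikzf1-cko values were 12.96, 11.6 and 10.2 CPM ex vivo and 4.88, 4.48 and 4.19 CPM stimulated. Notch genes had 3 of 39 (7.69%), at Maml3 and Rbpj. The lists were chosen with earlier results in view, so that their shares are descriptions.

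Genotype differences were tested by edgeR's quasi-likelihood F-test within each state, in 1 fit over 69957 regions, and a difference was called where FDR was under 0.05 and the log2 fold change was beyond 1 in either direction. The libraries are those that chose the regions, and genotype and depth cannot be told apart. Ex vivo, 14 closed regions were higher in Ikzf1-cko Treg and 19 lower, which is 1.12 and 1.51% of them. The shares were 0.588 and 4.04% of all regions tested, and 1.04 and 2.07% of covered regions away from start sites. Stimulated, 42 were higher and 7 lower, 3.35 and 0.558% of them, beside 1.16 and 20.2% of all tested and 3.30 and 5.68% of covered regions away from start sites.

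The level of the rule could be reached through 1 genotype alone. A region that did so is biased toward a difference in that direction, though it need not be called, so that these counts support nothing on their own. Of the 1255 closed regions, 1053 reached 10 CPM in both genotypes, 95 only in WT Treg and 107 only in Ikzf1-cko Treg. Among the 1053, 9 were higher and 4 lower ex vivo (0.855 and 0.380%), and 35 were higher and 3 lower stimulated (3.32 and 0.285%). Covered regions away from start sites that reached the level in both genotypes gave 0.299 and 0.407% ex vivo and 2.96 and 0.552% stimulated. Of the 20 regions lower in either state, 15 reached the level only in WT Treg, and of the 47 higher in either state 10 reached it only in Ikzf1-cko Treg.

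Without the fold threshold, 366 closed regions were higher and 173 lower ex vivo (29.2 and 13.8%, beside 8.78 and 12.7% of all tested and 17.3 and 17.0% of covered regions away from start sites). Stimulated, 546 were higher and 78 lower (43.5 and 6.22%, beside 20.4 and 30.7% of all tested and 41.7 and 14.8% of covered regions away from start sites), so that the share higher was near that of comparable regions. The median log2 fold change of closed regions was 0.10 ex vivo and 0.29 stimulated, that of all tested regions -0.13 and -0.11, and that of covered regions 0.06 and 0.24.

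Scaling moved these splits. Under TMM, 29 closed regions were higher and 11 lower ex vivo, and 61 higher and 5 lower stimulated. Under a loess scaling against abundance, 14 were higher and 18 lower ex vivo, and 15 higher and 11 lower stimulated, with a median of 0.11 over closed regions stimulated.

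Some calls were shared between states. Of the 47 regions higher in either state, 9 were higher in both, and of the 20 lower in either, 6 were lower in both. None was called in opposite directions.

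**Figure D5:**
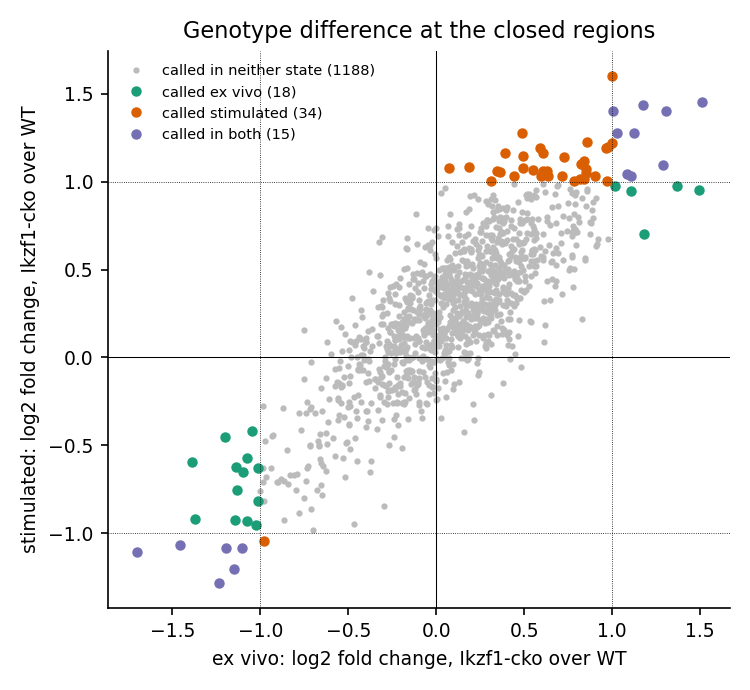
Log2 fold change of Ikzf1-cko over WT Treg ex vivo (horizontal axis) and stimulated (vertical axis) for the 1255 closed regions, with colours for regions called ex vivo (18), stimulated (34), in both states (15) or in neither (1188). Both states come from the same sorts. The called regions lie in the upper right and lower left corners, as the limits on both folds largely require.

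The largest increase ex vivo was 2.22 kb upstream of Rap1a, the gene of a small GTPase in integrin activation, in the sequence with an Ikaros match shown above. It held 9.23, 7.55 and 9.07 CPM ex vivo and 5.62, 5.66 and 3.74 CPM stimulated in WT Treg, against 24.8, 25.7 and 22.7 CPM and 11.2, 14.0 and 16.2 CPM in Ikzf1-cko Treg. The genotypes did not overlap in either state, and the stimulated Ikzf1-cko level was above the WT ex vivo level. In WT Treg this region stayed under 10 CPM, so it was chosen through the Ikzf1-cko libraries, as were the St3gal1, Lca5 and Unc80 regions that follow. The log2 fold change was 1.51 ± 0.14 (SE) ex vivo (FDR = 6.20e-09) and 1.45 ± 0.18 stimulated (FDR = 3.46e-07).

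A region 15.5 kb upstream of St3gal1, a sialyltransferase gene, held 8.08, 8.61 and 8.61 CPM ex vivo in WT and 23.1, 26.0 and 22.6 CPM in Ikzf1-cko Treg (log2 fold change 1.496 ± 0.13, FDR = 2.00e-09), and its stimulated change of 0.95 was under the fold threshold. A region 49.2 kb downstream of Lca5 was higher ex vivo by 1.37 ± 0.15 (FDR = 6.02e-08). The Unc80 intron with an AP-1 match had the largest stimulated increase, from 2.15, 1.28 and 3.12 CPM in WT to 7.05, 7.02 and 5.67 CPM in Ikzf1-cko Treg (1.60 ± 0.25, FDR = 5.71e-06). Its WT stimulated mean of 2.18 CPM was the lowest of all closed regions, so this change rests on few WT reads. The Jmjd1c intron, in a histone demethylase family gene, was higher by 1.18 ex vivo and by 1.44 ± 0.16 stimulated (FDR = 5.35e-08), and reached 10 CPM in both genotypes.

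Decreases were led by the Rras2 intron, in the gene of a Ras-related GTPase. It held 32.7, 27.2 and 29.3 CPM ex vivo and 9.59, 9.32 and 7.69 CPM stimulated in WT Treg, against 10.2, 7.99 and 8.98 CPM and 4.66, 3.56 and 4.19 CPM in Ikzf1-cko Treg. The Ikzf1-cko ex vivo libraries thus lay at the level of the WT stimulated ones, with log2 fold changes of -1.70 ± 0.12 ex vivo (FDR = 4.79e-11) and -1.11 ± 0.19 stimulated (FDR = 1.82e-05). The Lass6 intron, in a ceramide synthase gene, held 37.5, 38.3 and 34.5 CPM ex vivo in WT and 14.1, 11.7 and 14.3 CPM in Ikzf1-cko Treg (-1.46 ± 0.11, FDR = 6.08e-11). After stimulation it held 18.2, 20.8 and 16.8 CPM in WT and 9.65, 8.35 and 8.72 CPM in Ikzf1-cko Treg, a change of -1.07 that was -0.96 under DESeq2 and just short of the threshold under TMM. A region nearest to Rpl21-ps10 fell by 1.39 ex vivo. The Rras2 and Rpl21-ps10 regions reached 10 CPM only in WT Treg, whereas the Lass6 region did so in both genotypes. Stimulated, a region near 4930523C07Rik (-1.28 ± 0.24, FDR = 6.61e-05) and a region 165 kb from Enc1 (-1.21 ± 0.18, FDR = 3.44e-06) were also lower, and both reached the level only in WT Treg.

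On the gene lists, calls were few, and the genes below are named after their values were seen. The Tigit intron with RUNX and Ikaros matches held 8.66, 10.1 and 10.0 CPM ex vivo and 3.97, 6.58 and 6.45 CPM stimulated in WT Treg, against 23.8, 22.8 and 16.3 CPM and 14.7, 12.9 and 13.2 CPM in Ikzf1-cko Treg. It was higher in both states (1.13 ± 0.15, FDR = 1.84e-06, and 1.28 ± 0.19, FDR = 3.95e-06), with no overlap of genotypes, and it reached 10 CPM only in Ikzf1-cko Treg. After stimulation an exon of Klf6, a region downstream of it and an intron of Rbpj, the Notch effector, were higher by 1.04, 1.16 and 1.06. A Jak1 exon, at the level only in WT Treg, was lower ex vivo (-1.08, FDR = 1.08e-05), a call that was lost under DESeq2 (-0.99), TMM (-0.96) and, just short of the threshold, loess. Under loess the stimulated changes of the Rbpj and Tnfrsf8 regions were 0.75 and 0.69, short of the fold threshold. Outside the lists, an intron of Bcl2l11, encoding the proapoptotic protein Bim, went from 53.4 ± 3.10 to 24.3 ± 2.17 CPM between WT and Ikzf1-cko Treg ex vivo (n = 3, -1.14, FDR = 1.61e-09), and the Tnfrsf8 start site from 14.8 ± 2.00 to 29.6 ± 2.07 CPM stimulated (1.01, FDR = 2.64e-07).

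No closed region of homing, TCR signalling, negative regulator, NF-kB or AP-1 list genes was called by edgeR or by DESeq2 in either state. Of all closed regions, edgeR called 1.12% higher and 1.51% lower ex vivo, and 3.35 and 0.558% stimulated. Few calls were therefore to be expected on lists this short. Ex vivo and stimulated, unadjusted p-values under 0.05 were found at 5 and 7 of 11 homing regions, 5 and 3 of 8 TCR signalling regions, 8 and 7 of 15 negative regulator regions, 7 and 7 of 11 NF-kB regions and 4 and 4 of 6 AP-1 list regions. Such p-values were at 36.1% of all regions tested ex vivo and 56.3% stimulated, and at 55.2 and 54.1% of the closed regions. FDR under 0.05 was met at 3 and 6 homing, 5 and 3 TCR signalling, 7 and 7 negative regulator, 5 and 7 NF-kB and 2 and 3 AP-1 list regions. At that FDR, 29.2% of all closed regions were higher and 13.8% lower ex vivo, and 43.5 and 6.22% stimulated. The 12 closed regions of Ets1 were likewise without a call by edgeR or DESeq2, with 7 ex vivo and 4 stimulated at an unadjusted p under 0.05. The Il10 exon was higher in Ikzf1-cko Treg by 0.91 ex vivo (FDR = 3.10e-06) and 0.64 stimulated (FDR = 0.0042), under the fold threshold.

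Motif letters in the called regions are given as counts with no test. Of the regions higher in either state, 10 reached the level only in Ikzf1-cko Treg, and some were neighbours, as at Unc80 and Odc1. Under loess, 14 of the 42 higher calls in stimulated cells were kept. AP-1 letters were in 13 of the 47 closed regions higher in Ikzf1-cko Treg in either state (27.7%), in 1 of the 20 lower ones (5.0%) and in 13.7% of all closed regions. TCF/LEF letters were in none of the 47, in 3 of the 20 and in 5.82% of all. Ikaros letters were in 12 (25.5%) and 3 (15.0%), beside 15.1% of all, and RUNX letters in 7 (14.9%) and 3 (15.0%). After stimulation, closed regions with AP-1 letters had a median log2 fold change of 0.42 and those without 0.26, and in covered regions that did not close the medians were 0.43 and 0.23.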

How the data were processed

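ATAC-seq counts of 12 libraries were analysed as deposited. Per the submitters' processing notes and the study's methods, the authors converted reads with bcl2fastq, aligned them with Bowtie2, removed duplicates and blacklisted regions, called peaks with MACS2 in each replicate and merged them into 1 reference set, in which the deposited counts are raw reads per region and library. The methods print a human build, but the notes name mm9, whose chromosome lengths hold the last region of every chromosome except 19, where it ends 70 bases past the end. FPKM values beside the counts, and a table of the authors' own comparisons of groups, were not used. Of the 118680 regions, 200 on unplaced sequence held 0 counts. All per-library columns matched a sample (0 left unused).

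Counts were divided by library totals. Genotype contrasts were fitted with edgeR 4.0.16 (R 4.3.3; quasi-likelihood F-test, all 12 libraries, library totals without further scaling) on the 69957 regions that reached 3.6 CPM in 3 or more libraries. FDR is the Benjamini-Hochberg adjusted p over all of them. The script was tested on simulated data. DESeq2 1.42.0, TMM and loess scaling, other filters, a replicate block and leaving out libraries were alternatives. Regions were annotated with GENCODE M1, a start site being given to a region within 100 kb, and sequence was read from the mm9 assembly, with letters searched on either strand in the central 200 bases. Python 3.11.15, pandas 2.3.3, NumPy 2.4.6 and Matplotlib 3.10.9 were used.

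Named regions were the 10 with the largest smaller fold, the 5 highest, the leading region of list genes, the 3 largest genotype changes in each direction and state, and the 2 genes with most closed regions. Some regions on the lists that met this rule or were called are not reported here. The members and the lists were chosen with earlier results of these data known. Counting intervals were not computed, and the depth limits regions with few reads, the lowest at 7 reads in a library.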

Additional observations from a re-analysis of the deposited data

How the results depend on the processing

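The number of closed regions depended on scaling and thresholds: 2912 under TMM (all 1255 among them), 808 under loess (798 shared), 140 at a fold of 2, 696 at a floor of 20 CPM, and 1042 to 1584 without the libraries of 1 replicate number. The alternatives for position and sequence were chosen after seeing the data. The share over a start site was 6.08% under TMM and 1.43% at a fold of 2. AP-1 letters were in 11.4% at a floor of 20 CPM, TCF/LEF letters in 4.57% under TMM and 4.29% at a fold of 2, SP/KLF letters in 0.714% at a fold of 2, and CTCF letters in 1.61% under loess and 1.43% at a fold of 2. The cause was not tested. Genotype calls numbered 33 ex vivo and 49 stimulated, and 539 and 624 without the fold threshold. Among closed regions that reached 10 CPM in both genotypes, a restriction chosen after seeing the data, they numbered 13 and 38, on fewer regions. Stimulated, DESeq2 gave 79 (76 higher, 3 lower) and loess 26, of which 14 higher and 7 lower calls were among those reported, and ex vivo DESeq2 gave 24 higher and 13 lower. With the filter met in all 12 libraries, 9 rather than 19 were lower ex vivo, on fewer regions tested. Without 1 library the totals were 30 to 42 ex vivo and 44 to 67 stimulated, and 11 rather than 7 were lower stimulated without WT stimulated replicate 1. TMM moved the median of all tested regions by 0.12 ex vivo and 0.07 stimulated on the log2 scale, and loess by 0.13 and 0.11. With a replicate block the calls were 35 ex vivo and 48 stimulated. Same-numbered libraries did not deviate together (18 pairs, r from -0.38 to 0.29). Pairs across genotypes cannot share a sort, and within a genotype r ran from -0.36 to 0.21. With 3 libraries per group, low values of r cannot exclude pairing, so whether the numbers pair the states is unknown. The 28 named genotype results were picked for large changes or after their values were seen, and several alternatives change the fit little. A high share of kept calls was therefore likely beforehand. Of 357 values under alternatives, 335 kept the call, 22 fell under the threshold, 7 of them under loess, and 0 reversed. Among these were Enc1 ex vivo without Ikzf1-cko ex vivo replicate 2 (-0.97), Lass6 stimulated without WT stimulated replicate 2 (-0.98), and Tnfrsf8 stimulated without WT stimulated replicate 1 (0.91) or 3 (0.99) or Ikzf1-cko stimulated replicate 2 (0.96) or 3. Depth limits low regions most, and WT libraries more than Ikzf1-cko ones.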

Other observations

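Several closed regions sat together at further genes. At Dusp10, a gene of the negative regulator list, 5 lay within 26.2 kb. Arhgef10 and Kbtbd11 shared 6 within 32.9 kb, Nrip1, encoding a nuclear receptor corepressor, had 5 within 18.006 kb, and Bhlhe40, encoding a repressor that T cells induce on activation, had 4 within 39.8 kb. A Bhlhe40 region was higher in Ikzf1-cko than in WT Treg stimulated (41.3 ± 2.77 and 19.2 ± 1.70 CPM, mean ± SD, n = 3), with a log2 fold change of 1.10 (FDR = 3.29e-09, edgeR) that was 0.77 under loess scaling. A region 37.1 kb upstream of Odc1, the rate-limiting enzyme of polyamine synthesis, was higher by 1.22 in the same contrast (FDR = 8.01e-09) and by 0.90 under loess. These regions were singled out after their values were seen.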
